A study of Aspergillus nidulans with 6 samples.

Results

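The genes described were 43 identifiers of *A. nidulans* known or predicted to encode the backbone enzymes of secondary metabolism. They were looked up by identifier, and not by measured value, among the 10957 genes of the expression files. Their choice was made with earlier results of these data known. The identifiers came as 2 runs, which were taken as 23 polyketide synthase (PKS) genes and 20 nonribosomal peptide synthetase (NRPS) genes. Any hybrid of both classes was counted with the PKS genes. The files listed 40 of the 43, namely 20 PKS genes and all 20 NRPS genes. AN3610, AN7022 and AN9217 were not analysed here. The questions were which of these genes were expressed, which changed with salt and which differed between strains.

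RNA was sequenced from 6 cultures, 1 library for each of 3 strains with or without salt. The parent TN02A7 has the genotype pyrG89, riboB2, pyroA4, nkuA::argB2 and veA1. Strain WSA08 (Δ*cnaB*) keeps these markers and has *cnaB*, which encodes the regulatory subunit of the calcium-dependent phosphatase calcineurin, replaced by pyrG. Strain LXA05 (Δ*cnaB*Δ*cchA*) lacks in addition *cchA*, the gene of a plasma membrane calcium channel, also replaced by pyrG. Hereafter these are the single and the double mutant, or together the deletion strains. The label of LXA05 names pyrG89, nkuA::argB2 and veA1 but neither riboB2 nor pyroA4. The strains thus share the veA1 and nkuA::argB2 alleles. The deletion strains carry pyrG and the parent does not, so the marker and the deletions cannot be told apart. Each genotype was represented by 1 strain. The cultures grew from conidia for 18 h at 37°C with shaking, in a medium with pyridoxine, riboflavin, uridine and uracil, and were then incubated for 30 min with or without 800 mM NaCl. The label of every sample gives conidia as the source, whereas the study's methods describe the harvest of the grown cultures.

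A PKS builds a carbon chain from short acyl units in much the way a fatty acid synthase does, and an NRPS joins amino acids to a peptide without a ribosome. In filamentous fungi the genes of such backbone enzymes usually lie beside those of the tailoring enzymes, transporters and regulators of the same product, and many of these clusters are silent in standard culture. *A. nidulans* is known for products of both classes, among them penicillin, sterigmatocystin, emericellamides and conidial pigment. VeA, the protein affected by the veA1 allele that all 3 strains carry, acts with the methyltransferase LaeA in the control of such clusters and of development.

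The RefSeq table, built on another assembly (ASM1142v1) than the authors' ASM14920v1, held 41 of the 43 identifiers and gave a symbol to 6. AN8209 is pksP there, the name of the conidial pigment synthase of *A. fumigatus*. AN0150 is tpcC, the name of the synthase of the trypacidin cluster of *A. fumigatus*, and AN6000 is nscA, the name of a synthase of the neosartoricin pathway known from related species. AN1784 is pyr2, the name of the pyripyropene synthase of *A. fumigatus*. AN10576 is ivoA, which acts in the formation of the conidiophore pigment of *A. nidulans*, and AN1242 carries the symbol nrps1. The other members are given by identifier.

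The values are reads per 1000000 reads counted on genes (RPM), which the authors normalized by TMM, a trimmed mean of log ratios, within the control and salt libraries of a strain. Values under 1 are listed as 0. The values are not divided by gene length, so no order of levels between genes is drawn from them. The steps between the values gave between 41369564 and 50006318 reads per library, more than the raw reads the study states, so these may not all be separate reads. The smallest listed value stood for 38 to 55 of these reads, so a listing at 0 leaves room for reads up to about that number. *cnaB* (AN6566) had 86.2 RPM in the control and 73.6 RPM in the salt library of the parent, and it was listed at 0 in the 4 libraries of the deletion strains. *cchA* (AN1168, cch1 in RefSeq) had between 74.1 and 136 RPM in the parent and the single mutant, against 3.56 and 3.96 in the double mutant. Of 8 marker genes of conidia and conidiophores, 5 to 7 had a value in a library. Their summed value was 49.0 to 58.8 RPM in the control libraries and 375 to 686 in the salt libraries. The marker AN5015 alone had 407 RPM in the single mutant with salt. The conidial hydrophobin gene dewA was listed at 0 in all 6 libraries, the conidiation regulator brlA reached at most 4.68 RPM, and the conidial laccase gene yA went from 12.5 to 14.3 RPM without salt to 227 to 236 with salt.

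Of the 43 genes, 31 had a value in at least 1 library. They made up 77.5% of the 40 listed genes, against 82.9% of all genes in the files. A value in all 6 libraries was found for 20 members, or 50% of those listed, against 71.8% of all genes. Both classes had 10 such genes. These shares are given without a test. Gene length, which bears on which genes pass the limit of listing, was not taken into account in them. Another 11 members had a value in some of the libraries only.

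The 9 remaining genes had no value above 0 in any library. The PKS genes AN0523, AN1036, AN1784 (pyr2), AN6431 and AN7071 and the NRPS genes AN4827, AN8513 and AN9226 were listed at 0 in all 6 libraries. AN8105, an NRPS gene, was listed at 0 in 2 libraries and had no value in the other 4. These genes were not detectable above the limit of listing, which does not show that they were silent.

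A single library held the value of 3 genes. AN8910 had 4.64 RPM in the parent with salt, AN3495 had 1.06 in the single mutant without salt, and AN3496 had 1.05 in the double mutant without salt. The last of these values lie just above the limit of listing. They were not tested, since a value in at least 2 libraries was required, and 28 members, 14 of each class, entered the tests. Any gene with a value in fewer libraries is absent from the counts of genes tested below. The counts by library and those within single strains include such genes.

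Members with a value numbered 23 in the parent, 27 in the single mutant and 28 in the double mutant without salt, and with salt 27, 25 and 26, in this order. Members above 10 RPM numbered 5, 7 and 9 without salt and 9, 13 and 12 with salt. Over all genes, those above 10 RPM numbered 6397, 6311 and 6260 without salt and 6429, 6268 and 6278 with salt. More of the backbone genes stood above this level with salt than without it in each strain, while the number over all genes moved little.

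**Figure D1:**
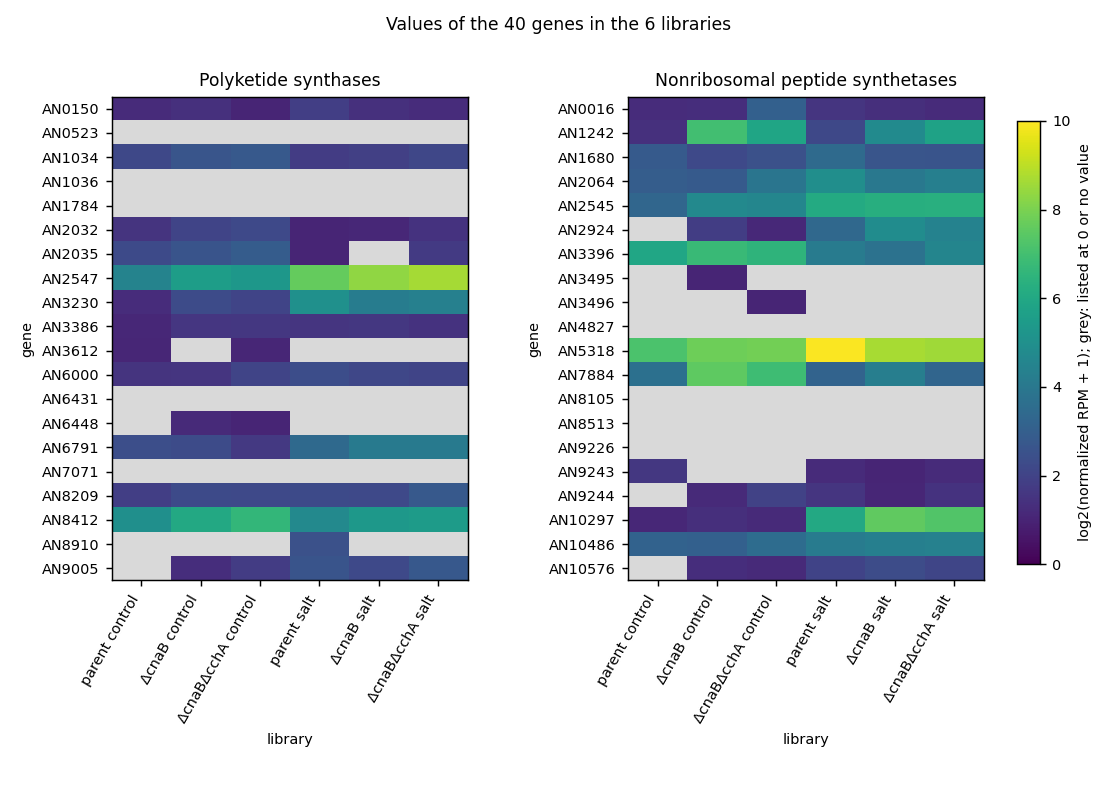
Deposited values of the 40 listed genes as a heat map of log2(normalized RPM + 1), with PKS genes on the left, NRPS genes on the right, genes in rows, the 6 libraries in columns and grey for genes listed at 0 or without a value. AN2547, AN2545 and AN10297 are brighter in the 3 salt libraries, AN3396 in the 3 control libraries, AN1242 in all 4 libraries of the deletion strains and AN7884 in their control libraries.

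With salt, 11 of the 28 tested members rose (39.3%, against 28.5% of all 8865 genes tested) and 5 fell (17.9%, against 26.8%), by limma on log2(value + 1) with strain as a term and a Benjamini-Hochberg adjusted *P* under 0.05. The rising genes included 4 PKS and 7 NRPS genes, and the falling genes 3 PKS and 2 NRPS genes. The median log2 change over the 28 members was 0.35, against -0.03 over all genes tested. The 3 strains stood as the 3 cultures of each treatment in this test, so the error measures how far the strains differ in their response. In such whole-culture RNA, fewer cells of a type and less RNA per cell cannot be told apart. Among the conidial markers, yA, vosA and AN5015 had higher values with salt in each strain, wetA and abaA had lower ones, and dewA was listed at 0. The marker rodA went from 14.7 to 1.51 RPM with salt in the parent, and from 0 (listed) to 2.30 and 1.36 in the deletion strains. The value of brlA was higher with salt in the parent and the single mutant and listed at 0 in the double mutant. The part of these markers in the result was not tested. With library totals in place of TMM, 22.5% of all genes rose and 35.7% fell, and 9 members rose and 6 fell.

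AN10297, an NRPS gene, had the largest change with salt among the 28 tested members. Without salt it had 1.14 RPM in the parent, 1.52 in the single mutant and 1.27 in the double mutant, and with salt it had 64.7, 188 and 155. Every control value lay near the limit of listing and every salt value far above it. The log2 change was 5.76 ± 0.30 (SE), with a 95% interval of 5.00 to 6.52 and an adjusted *P* of 0.00045 by limma. Within the strains, the salt value was 56.9 times the control value in the parent (95% exact interval of the reads 43.2 to 76.7), 123 times in the single mutant (97.6 to 159) and 122 times in the double mutant (96.3 to 157). These intervals cover counting error only.

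A pair of members that lie 2 genes apart rose together. The PKS gene AN2547 had 21.0, 46.1 and 38.4 RPM without salt in the parent, the single mutant and the double mutant and 198, 321 and 398 with salt. Its neighbour AN2545, an NRPS gene, had 8.92, 25.4 and 23.2 RPM without salt and 68.4, 76.9 and 79.1 with salt. In both genes the lowest salt value was above the highest control value. The log2 change was 3.10 ± 0.15 for AN2547 (adjusted *P* = 0.00045) and 2.03 ± 0.28 for AN2545 (adjusted *P* = 0.0036). As neighbours they are not independent cases.

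The NRPS gene AN2924 was listed at 0 in the parent without salt and had 2.52 RPM in the single mutant and 1.20 in the double mutant. With salt it had 9.39, 28.4 and 20.5 RPM in these strains. The log2 change of 3.24 ± 0.19 (adjusted *P* = 0.00047) depends on the added constant for the parent, whose control value is listed at 0. In the deletion strains, where each library had a value, the salt value was 11.3 times the control value in the single mutant and 17.1 times in the double mutant.

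Of the PKS genes, AN3230 had 1.40, 3.93 and 3.10 RPM without salt in the parent, the single mutant and the double mutant, against 31.6, 17.5 and 19.5 with salt. AN6791 had 4.26, 3.82 and 2.19 RPM without salt and 9.63, 16.0 and 16.1 with salt. The parent was lowest for AN3230 without salt and highest with it, whereas for AN6791 it was lowest with salt. The log2 changes were 2.66 ± 0.39 (adjusted *P* = 0.0045) and 1.75 ± 0.31 (adjusted *P* = 0.0076).

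AN5318, an NRPS gene, had 141 RPM without salt in the parent, 222 in the single mutant and 234 in the double mutant, against 974, 414 and 384 with salt. The parent held the lowest control value and the highest salt value. The log2 change over the strains was 1.46 ± 0.43 (adjusted *P* = 0.038). Within the strains, the salt value was 6.88 times the control value in the parent (95% exact interval 6.71 to 7.07), 1.87 times in the single mutant (1.82 to 1.92) and 1.64 times in the double mutant (1.60 to 1.68).

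Smaller rises were found for 4 more genes. AN2064, an NRPS gene, had 6.64, 6.13 and 13.8 RPM without salt and 30.1, 15.3 and 18.7 with salt, a log2 change of 1.21 ± 0.33 (adjusted *P* = 0.030). The NRPS gene AN10486 had 7.96, 7.36 and 10.7 RPM without salt and 16.8, 18.8 and 20.1 with salt, a change of 1.03 ± 0.16 (adjusted *P* = 0.0059). The increase in AN10486 was close to 1 on the log2 scale in each strain, at 0.99 in the parent, 1.24 in the single mutant and 0.85 in the double mutant. The PKS gene AN9005 was listed at 0 in the parent without salt and otherwise had 1.5 and 2.41 RPM without salt and 5.04, 3.60 and 5.72 with salt (log2 change 1.48 ± 0.41, adjusted *P* = 0.030). AN10576 (ivoA), the conidiophore pigment gene, was likewise listed at 0 in the parent without salt and had 1.48 and 1.29 RPM in the deletion strains, against 3.06, 3.97 and 3.24 with salt (log2 change 1.31 ± 0.31, adjusted *P* = 0.020).

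On the deposited scale, all salt values were above all control values in 11 members, against 27.8% of all genes tested, and below them in 4, against 22.7%. On a common scale, obtained with TMM factors over the 6 libraries, they were above in 13, against 29.5%, and below in 2, AN2035 and AN3396, against 25.6%. The number of rising members was 7 without a library of the single mutant in place of 11, with AN5318, AN2064, AN10486 and AN10576 no longer called. Without a library of the double mutant AN5318, AN9005 and AN10576 were lost, and without a parent library AN2064 was lost and AN9243 gained. With a constant of 0.1 in place of 1, AN5318, AN9005 and AN10576 did not pass by limma (adjusted *P* of 0.051, 0.089 and 0.068), and with library totals AN2064 and AN5318 did not (0.051 and 0.060). Leaving out any library or strain, and changing scale, constant or filter, left AN10297, AN2547, AN2545, AN2924, AN3230 and AN6791 past the threshold. The strain term pairs the libraries of a strain, so leaving out 1 of them gave the same log2 change as leaving out the strain. These are therefore not separate checks.

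AN3396, an NRPS gene, fell, with lower values with salt in all 3 strains. It had 59.4, 109 and 90.6 RPM without salt in the parent, the single mutant and the double mutant, and 16.7, 12.5 and 22.6 with salt. No salt value reached the lowest control value. The log2 change was -2.25 ± 0.28 (adjusted *P* = 0.0027), and it was -1.77 in the parent, -3.02 in the single mutant and -1.96 in the double mutant.

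AN7884, an NRPS gene, also fell, but its values differed between strains. Without salt it had 11.8 RPM in the parent, 181 in the single mutant and 118 in the double mutant, and with salt it had 8.12, 18.6 and 8.61. The groups overlapped, since the salt value of the single mutant was above the control value of the parent. The log2 change was -2.44 ± 0.64 (adjusted *P* = 0.026). The control value was 1.45 times the salt value in the parent (95% exact interval 1.27 to 1.66), 9.72 times in the single mutant (9.0 to 10.5) and 13.7 times in the double mutant (12.3 to 15.3).

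The 3 falling PKS genes were AN2035, AN2032 and AN8412. AN2035 had 3.70, 5.02 and 6.43 RPM without salt and 1.04, 0 (listed) and 2.25 with salt, a log2 change of -1.66 ± 0.36 (adjusted *P* = 0.014). AN2032 had 1.81, 3.11 and 3.59 RPM without salt and 1.04, 1.16 and 1.76 with salt, a change of -0.71 ± 0.23 (adjusted *P* = 0.048). In both genes each strain had a lower value with salt than without, and the salt values lie near the limit of listing. AN8412 had 30.4, 64.6 and 96.6 RPM without salt and 25.01, 39.2 and 43.5 with salt, a change of -0.70 ± 0.20 (adjusted *P* = 0.032). Its control value in the parent lay below the salt values of the deletion strains. Without any 1 of the deletion strains' libraries the number of falling members was 2 in place of 5, with AN3396 and AN2035 past the threshold and AN7884, AN8412 and AN2032 not. Without either parent library it was 7, with AN1034 and AN6448 added. AN6448 had a value in the control libraries of the deletion strains only, so it could only be lower with salt. AN2035 did not pass by limma with a constant of 0.1 (adjusted *P* = 0.057), AN2032 did not with TMM over all libraries (0.051) or without the filter (0.055), and AN7884, AN8412 and AN2032 did not without the strain term (0.087, 0.24 and 0.10).

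The other 12 tested members did not pass the test with salt. AN1034, a PKS gene, had 3.45, 5.30 and 5.95 RPM without salt and 2.40, 2.67 and 3.37 with salt, lower with salt in each strain but with an adjusted *P* of 0.051. AN8209 (pksP) had 2.63 to 3.80 RPM without salt and 3.57 to 5.87 with salt, a log2 difference of 0.30 with a 95% interval of -0.28 to 0.87. For AN0150 (tpcC) the range was 1.03 to 1.59 RPM without and 1.44 to 2.57 with salt, and the difference was 0.30 (-0.34 to 0.93). AN6000 (nscA) had 1.85 to 3.15 RPM without and 3.12 to 4.13 with salt, a difference of 0.47 (-0.18 to 1.13). The named PKS genes thus had low values in every library, and the interval of each difference includes 0.

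AN1680, an NRPS gene, had 3.63 to 6.15 RPM without salt and 5.05 to 9.92 with salt (log2 difference 0.39, 95% interval -0.11 to 0.89). The PKS gene AN3386 had 1.18 to 2.06 and 1.73 to 2.09 RPM (0.10, -0.52 to 0.72). AN0016, an NRPS gene, had 7.48 RPM in the double mutant without salt and 1.34 to 1.93 in the other 5 libraries (-0.51, -1.74 to 0.72). The PKS genes AN3612 and AN6448 were listed at 0 in every salt library and reached at most 1.12 and 1.28 RPM without salt. The NRPS genes AN9243 and AN9244 had values of at most 2.87 RPM, and AN1242 is described with the strains.

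**Figure D2:**
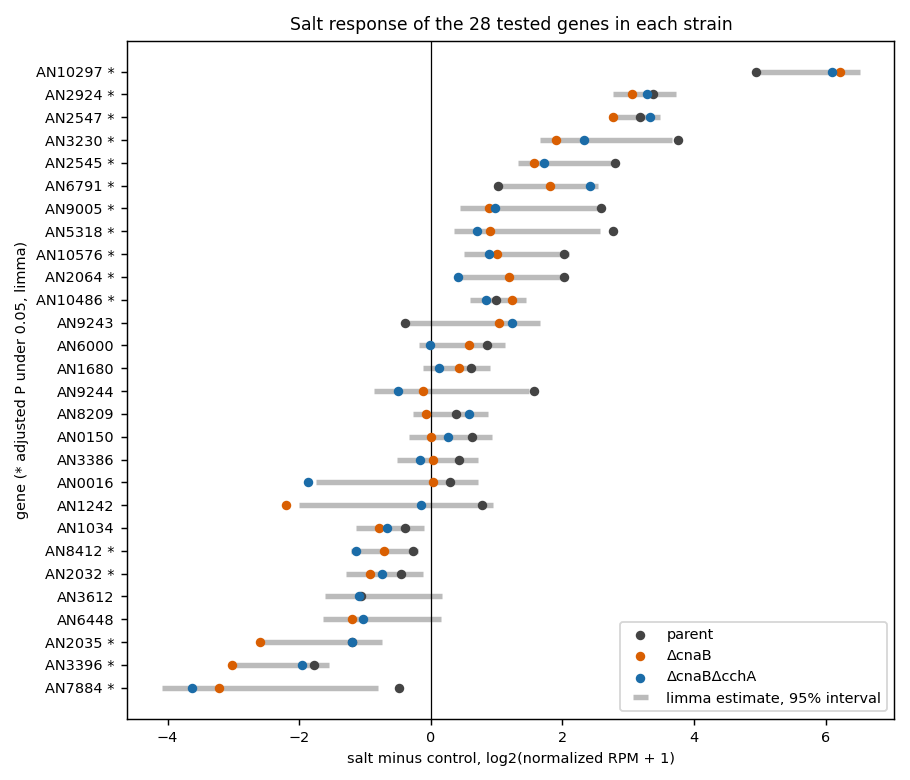
Difference in log2(normalized RPM + 1) between the salt and control libraries of each strain for the 28 tested members, 1 point per strain with a value in either library, with grey bars for the 95% interval of the limma estimate. AN10297 stands farthest to the right at 4.94 to 6.23, and AN7884 spreads from -0.49 in the parent to -3.63 in the double mutant.

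Within single strains, members that differed by more than 1 on the log2(value + 1) scale were counted without a test. All members with a value in either library of the strain were included, also those that did not enter the tests. In the parent, 12 of 28 members were higher with salt (21.7% of all genes with a value) and 3 lower (17.8%). In the single mutant they numbered 10 of 28 (20.7%) and 6 (17.2%), and in the double mutant 7 of 29 (20.0%) and 8 (17.2%). The number higher with salt was thus larger in the parent and the number lower was larger in the deletion strains. Each count rests on 1 pair of libraries. Any member with a value in only 1 library of the pair was counted, however low that value. In the parent these were AN2924, AN8910, AN9005, AN9244 and AN10576 (higher) and AN3612 (lower). In the single mutant they were AN9243 (higher) and AN2035, AN3495 and AN6448 (lower). In the double mutant they were AN9243 (higher) and AN3496, AN3612 and AN6448 (lower). The counts thus depend in part on the limit of listing.

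Strains were compared on this common scale because the authors had normalized each strain on its own. In the mean of both deletion strains, 4 of the 28 members were higher than in the parent (14.3%, against 10.1% of all genes tested) and 0 were lower (against 3.24%), by limma with treatment as a term. At an unadjusted *P* under 0.05 there were 9 members in either direction (32.1%, against 35.1% of all genes). The median log2 difference over the members was 0.56, against 0.03 over all genes. Of the 28, 23 were above 0 (82.1%, against 51.8% of all genes tested). AN6448 is among them, and it entered the test only through the control libraries of the deletion strains. On the deposited scale the median of all genes was -0.24 in place of 0.03, and 7.40% of all genes were higher and 18.3% lower, with 4 and 0 members.

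AN1242 (nrps1) had the largest difference between strains. On the common scale the parent had 1.45 RPM of it in the control and 3.04 in the salt library. It had 133 and 28.4 in the single mutant and 62.5 and 57.4 in the double mutant. Each value of the deletion strains was above both parent values, with or without salt. The log2 difference was 4.30 ± 0.59 (95% interval 2.78 to 5.81, adjusted *P* = 0.016). Without salt, the value in the single mutant was 91.9 times and that in the double mutant 43.1 times the parent's, and with salt 9.34 and 18.9 times. Over the strains the gene did not pass the test with salt (log2 difference -0.53, 95% interval -2.00 to 0.95). Without the parent's control library, the strain difference was 3.36 with an adjusted *P* of 0.074.

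AN8412, a PKS gene, had 26.8 and 21.5 RPM in the parent without and with salt on the common scale. It had 68.5 and 42.1 in the single mutant and 103 and 47.4 in the double mutant. Again the strains did not overlap. The log2 difference was 1.32 ± 0.20 (adjusted *P* = 0.021), so the gene was higher in the deletion strains and lower with salt.

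AN2547 and AN2924 were higher in the deletion strains and with salt. AN2547 had 18.5 RPM without and 171 with salt in the parent, 48.9 and 344 in the single mutant, and 41.1 and 433 in the double mutant, a log2 difference between strains of 1.21 ± 0.16 (adjusted *P* = 0.015). The values of AN2924 were 0 (listed) and 8.08 RPM in the parent, 2.67 and 30.4 in the single mutant and 1.28 and 22.4 in the double mutant, a difference of 1.56 ± 0.20 (adjusted *P* = 0.013). Within a treatment each deletion strain was above the parent in both genes. The call of AN2924 was lost without any 1 of the 4 libraries of the deletion strains (adjusted *P* of 0.052 to 0.058). That of AN2547 was lost without the control library of the parent or of the single mutant or the salt library of the double mutant (0.050 to 0.064), and that of AN8412 without any control library or the salt library of the single mutant (0.061 to 0.074).

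Neither AN7884 nor AN2545 passed the test between strains. AN7884 had 10.3 and 6.99 RPM in the parent without and with salt, 192 and 19.99 in the single mutant and 126 and 9.38 in the double mutant. The deletion strains were far above the parent without salt, and with salt the value of the double mutant lay below the control value of the parent. The log2 difference was 2.34 ± 0.66 (adjusted *P* = 0.077). AN2545 had 7.84 and 58.9 RPM in the parent, 26.9 and 82.5 in the single mutant and 24.8 and 86.1 in the double mutant, a difference of 1.06 ± 0.28 (adjusted *P* = 0.066).

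The number of members called between the strains depended on the parent's salt library. Without it, 12 members were higher in the deletion strains, AN7884 among them with a log2 difference of 3.79 (adjusted *P* = 0.012), and 1, AN9243, was lower, against 1589 and 1061 of the 8865 genes tested. Without the parent's control library, 2 were higher (AN10297 and AN2924) and 1, AN5318, was lower, against 518 and 128. AN5318 was called in opposite directions, at 0.96 without the parent's salt library and at -0.96 without its control library. AN6448, among the members higher without the parent's salt library, had a value only in the control libraries of the deletion strains. Without the control library of the single mutant, 1 member was higher, and without any 1 of the other 3 libraries of the deletion strains, 2 were. In 4 members, AN1242, AN8412, AN8209 (pksP) and AN3386, all 4 values of the deletion strains were above both parent values, against 11.2% of all genes. In 0 members they were below, against 9.63%.

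**Figure D3:**
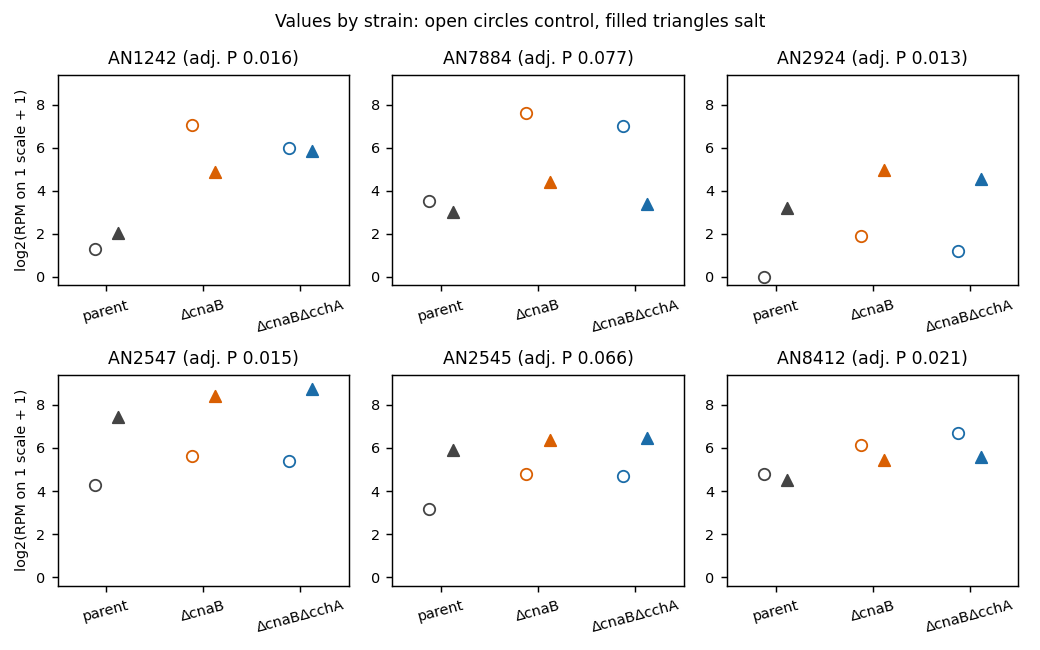
Values of 6 members on the common scale as log2(RPM + 1), by strain, with open circles for control and filled triangles for salt. In AN1242 and AN8412 all points of the deletion strains lie above both parent points, and in AN7884 they stand apart from the parent mainly without salt.

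Between the deletion strains, 0 members passed the test in either direction, and 0 did at an unadjusted *P* under 0.05, by limma in the same fit. Over all genes, 1 was called, *cchA* itself (0.0113% of genes, lower in the double mutant), and 372 had an unadjusted *P* under 0.05. Across the members, the log2 difference between the double mutant and the single mutant ran from -0.81 for AN7884 (95% interval -2.76 to 1.14) to 1.05 for AN2035 (-0.11 to 2.22). For AN2547 it was 0.04 (-0.44 to 0.52), and for AN1242 -0.05 (-1.79 to 1.70).

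Whether the salt response itself differed between the deletion strains and the parent was tested by an interaction term, which had 1 residual degree of freedom per gene. There 0 members and 0 of all genes passed by limma, while 11 members (39.3%) and 2308 genes (26.0%) had an unadjusted *P* under 0.05. The smallest adjusted *P* was 0.0997. On the log2 scale, the salt response of the deletion strains minus that of the parent was -1.97 ± 0.17 for AN5318 and -2.93 ± 0.26 for AN7884. For AN10297 it was 1.22 ± 0.22 (adjusted *P* = 0.11). With only genes that reach 5 RPM tested, 1 of 17 members passed with a larger response, AN10297, and 4 passed with a smaller response, AN2545, AN3230, AN5318 and AN7884, against 475 and 492 of the 7660 genes tested.

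Because genes of a product often lie together, the 3 annotated genes on each side of every member were counted in the RefSeq gene order. Of 221 neighbouring identifiers 109 were tested, of which 34 rose with salt (31.2%, against 28.5% of all genes) and 28 fell (25.7%, against 26.8%). Between strains, 20 neighbours were higher in the deletion strains (18.3%, against 10.1%) and 3 were lower (2.75%, against 3.24%). Of the 43 tested neighbours of members that rose, 15 rose and 12 fell. Of the 8 tested neighbours of members that fell, 1 rose and 4 fell. Whether reads of a gene and an overlapping or antisense neighbour could be told apart is not given in the sources used here.

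The neighbours named from here on were chosen after their values were seen. Around AN2547, the genes AN2546, AN2548 and AN2549 rose with AN2545 by 1.85, 2.45 and 1.72 on the log2 scale (adjusted *P* of 0.003, 0.002 and 0.002 by limma). AN2549 had 55.3, 111 and 78.9 RPM without salt and 213, 270 and 312 with salt, and it was also higher in the deletion strains, by 0.90 (adjusted *P* = 0.041). The outer genes AN2544 and AN2550 were listed at 0 in all libraries. The rise thus covered 5 adjacent genes.

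Next to AN7884, the gene AN7883 was listed at 0 in the parent without salt and had 99.2 RPM in the single mutant and 36.8 in the double mutant, against 5.57, 54.3 and 15.9 with salt. AN11028, 3 genes away, was at 0 in the parent without and with salt and had 33.5 and 31.5 RPM in the deletion strains without salt and 12.4 and 5.82 with salt. Both were higher in the deletion strains, with log2 differences of 4.27 ± 0.80 (adjusted *P* = 0.033) and 4.25 ± 0.47 (adjusted *P* = 0.010). Since parent values were listed at 0, these sizes depend on the added constant. AN7885 and AN7886 on the other side were listed at 0 throughout.

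AN2404, the neighbour of AN10297, had 49.8, 116 and 107 RPM without salt and 2814, 4911 and 4020 with salt (log2 change 5.47 ± 0.15), and AN10300 on the other side rose by 1.72 ± 0.18. The next genes, AN2405 and AN2406, fell by 0.75 and 0.65. Beside AN3396, AN3395 and AN3394 (fmaG in RefSeq) fell with salt by 1.19 and 2.56 and were higher in the deletion strains by 1.97 and 2.13. AN6792, next to AN6791, had 1.54, 9.86 and 10.1 RPM without salt and 220, 711 and 495 with salt, while AN6790 on the other side fell by 1.109. Members and their neighbours moved together in some places and apart in others.

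**Figure D4:**
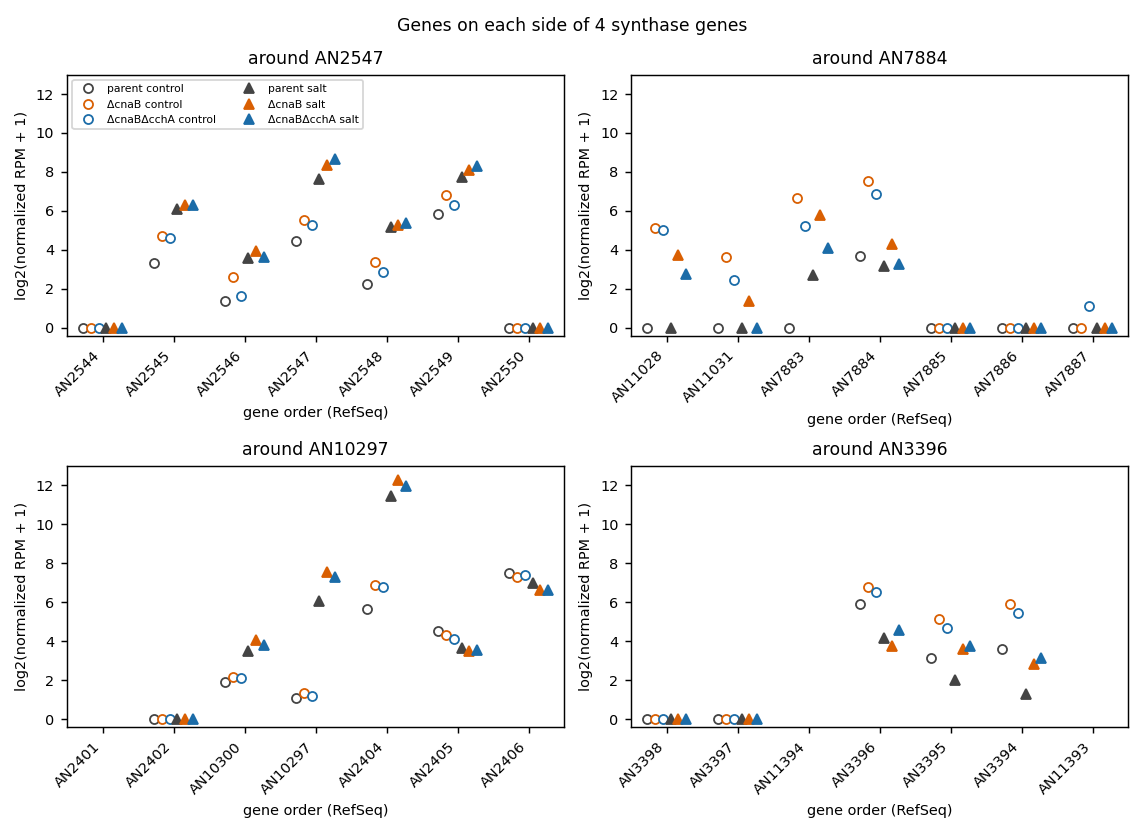
Deposited values as log2(normalized RPM + 1) of the genes on each side of 4 members, in RefSeq gene order, with 1 point per library (open circles control, filled triangles salt). The 5 genes from AN2545 to AN2549 all have higher salt than control points, and around AN7884 points above 0 stand at AN7884 and on its left side, mostly in deletion strains, apart from 1 point at AN7887.

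A list of 36 further identifiers was also chosen with earlier results of these data known. It held partner genes of backbone clusters, pigment oxidases and an enzyme that activates carrier domains. Of the 36 identifiers, 11 could be tested. Of these 11, 6 rose with salt (54.5%, against 28.5% of all genes) and 1 fell (9.09%, against 26.8%). Their median log2 change was 0.73, against -0.03 over all genes. The rising genes included AN2548 and AN2549 and the conidial laccase gene yA (AN6635), with a log2 change of 4.02 ± 0.12. AN6002 (nscC in RefSeq) had 2.80 to 7.02 RPM without salt and 6.53 to 8.39 with salt, a change of 0.73 ± 0.24 (adjusted *P* = 0.048). AN8414 and AN8408, near AN8412, were listed at 0 in all control libraries and had 2.78 to 7.86 and 1.110 to 2.86 RPM with salt. Both are among the 6 that rose, but they entered the test only through the salt libraries and could only rise. AN8415, from the same list, had 3.95 RPM without and 6.32 with salt in the parent. In the single mutant it had 11.9 and 6.69 RPM, and in the double mutant 13.9 and 8.12 (adjusted *P* = 0.46 by limma). The falling gene was ivoB (AN0231), the oxidase gene of the conidiophore pigment, with 4.19 to 5.33 RPM without salt and 1.42 to 2.45 with salt (-0.98 ± 0.20, adjusted *P* = 0.012). ivoA and ivoB, which act on the same pigment, thus changed in opposite directions, both at low values. In the deletion strains, 1 of the 11 was higher, AN2549.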

How the data were processed

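RNA-seq values of 6 libraries were analysed, with strain and treatment taken from the labels. According to the study's methods, the authors filtered the reads, aligned them to assembly ASM14920v1 using TopHat v2.0.12 with 2 mismatches allowed, counted them by RSEM and applied TMM normalization ahead of DEGseq. The deposited values are a signal of normalized RPM, scaled within the control and salt libraries of a strain. Although their heading reads as counts, the numbers are not whole, so a unit other than the planned one was found and no count model was used. Values under 1 are listed as 0 and missing values were treated as 0. All nonzero values were whole multiples of a step per library (tolerance 0.001), which gave the reads per library. They exceed the raw reads the study states, so the 95% exact (Clopper-Pearson) intervals of ratios are too narrow, and they cover counting error only.

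Genes that reached 1 RPM in 2 or more libraries were tested with limma 3.58.1 in R 4.3.3 (two-sided, eBayes with trend) on log2(value + 1), a scale that understates changes of low genes, with Benjamini-Hochberg adjustment over all 8865 genes and a threshold of 0.05. The salt contrast used the deposited values with strain as a term. The strain contrasts used values rescaled by TMM factors over all 6 libraries (log-ratio trim 0.3, abundance trim 0.05), with treatment as a term. Each group had 1 library, so the *P* values do not measure spread within a group. In the salt contrast the error is how far the strains differ in their salt response. In the strain contrasts it is how far the strain differences change between control and salt. In the interaction it is how far the deletion strains differ from each other in their salt response. Named are all members, the deleted genes, and the partner genes past the threshold (at most 4 per list). Members and lists were chosen with earlier results of these data known. The RefSeq table of ASM1142v1 matched 10029 identifiers and gave symbols and gene order only. The salt and strain fits were also run on simulated data, with independent noise per library and no difference between strains in the salt response. That simulation does not show how the fits behave where strains differ in their response. Python 3.11.15 with pandas 2.3.3 was used.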

Additional observations from a re-analysis of the deposited data

Results flagged for a closer look

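In 3 NRPS genes the parent and both deletion strains moved in opposite directions with salt, as differences of log2(value + 1) between 1 salt and 1 control library. AN1242 (nrps1) moved by 0.77 in the parent, -2.21 in the single mutant and -0.15 in the double mutant. AN9243 moved by -0.38 in the parent, 1.04 in the single mutant and 1.24 in the double mutant. It had 2.07 RPM in the parent without salt, was listed at 0 in both deletion strains without salt, and had 1.35, 1.06 and 1.36 RPM with salt in the parent, the single mutant and the double mutant. AN9244, the adjacent gene, moved by 1.56 in the parent, -0.11 in the single mutant and -0.50 in the double mutant. It was listed at 0 in the parent without salt and had 1.28 and 2.87 RPM in the deletion strains, against 1.95, 1.111 and 1.73 with salt. The interaction term of limma did not pass the threshold for any of them, with adjusted *P* values of 0.30 for AN1242, 0.13 for AN9243 and 0.12 for AN9244. The values of AN9243 and AN9244 lie near the limit of listing.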

How the results depend on the processing

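Leaving out single libraries or strains moved the number of members that rose with salt from 11 to between 7 and 11, of those that fell from 5 to between 2 and 7, of those higher in the deletion strains from 4 to between 1 and 12, and of those lower there from 0 to between 0 and 1. Without a strain term 2 members fell with salt, and without a treatment term 0 were higher in the deletion strains. With a filter of 5 RPM, 1 member had a larger and 4 a smaller salt response in the deletion strains. Past a log2 difference of 2, members lower with salt numbered 0 in the parent and 1 in the double mutant, and members higher in the single mutant numbered 3. With library totals and the limit kept at 1, members higher with salt in the single mutant numbered 6 in place of 10. No call of the full fits changed sign under the alternatives run. The strain difference of AN5318, not called with all libraries, was called at -0.96 without the parent's control library and at 0.96 without its salt library (adjusted *P* of 0.045 and 0.024 by limma). The call of AN2924 between strains was lost with a constant of 0.1 (adjusted *P* = 0.062) and with values listed as 0 set to 1 (0.051), by limma. Over all genes, those lower in the deletion strains numbered 287, against 1622 with deposited values, 1555 with library totals and 170 with a constant of 0.1. Without the treatment term 27 genes were higher and 2 lower there. With the filter of 5 RPM, 475 genes had a larger and 492 a smaller response. Without single libraries or strains, the genes higher with salt numbered as few as 1638 and those lower as few as 1190. Without the strain term 1308 were lower. In the strain contrast, genes higher ranged from 326 to 1589 without single libraries, and genes lower from 63 to 1061. The cause of these shifts was not tested.

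A planned count test on the recovered reads was not run, and the interaction could not be fitted without single libraries. The strain term pairs the control and salt library of a strain, and the labels carry no replicate numbers for another pairing. The overlap of salt and control values on the common scale was added after seeing the data. The limit of listing at 1 RPM, and not depth, limits what can be seen of low genes.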
